A study of Homo sapiens with 8 samples.

Results

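The genes whose symbol starts with KCN encode the potassium channels: the pore-forming subunits, most of their auxiliary subunits, and a few transcripts named after a neighbouring channel gene. On the Illumina HumanHT-12 v4 bead array, 177 of 47322 probes carry such a symbol, and they stand for 97 of 31426 genes. For each gene its brightest probe, by the mean of the 8 arrays, was used. Of the 97 genes, 54 had 1 probe and 43 had several, with at most 6. The symbols are those of the array, and 96 of them are current names, while KCNE1L is now KCNE5.

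RNA was measured on 8 arrays of 2 human neuroblastoma cell lines, SH-EP2 and SH-SY5Y. Both lines are subclones of SK-N-SH; SH-SY5Y is neuroblastic, and SH-EP2 is epithelial-like and lacks neuronal features. The cells carried a lentivirally delivered shRNA against TRPM7, a cation channel fused to a kinase, or a scrambled shRNA as control, with 2 arrays in each of the 4 groups. The cells were stably transduced, with 1 TRPM7 shRNA on the arrays, so an effect of that sequence on other transcripts cannot be told apart from an effect of TRPM7. The labels do not say whether the arrays of a group came from separate cultures, and the p-values measure the spread between these arrays, which may be technical.

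Potassium channels set the resting potential and end action potentials. Voltage-gated alpha subunits (KCNA to KCND, KCNF to KCNH, KCNQ, KCNS and KCNV) form channels that open on depolarization, or modify such channels. Inward rectifiers (KCNJ) and K2P leak channels (KCNK) hold the resting potential, and calcium- or sodium-activated channels (KCNM, KCNN, KCNT) couple potassium efflux to intracellular ions. Auxiliary subunits such as KCNMB, KCNAB and KCNIP proteins change the gating or the surface delivery of the pores. KCNH currents are well known in neuroblastoma cells, where they regulate excitability.

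Signals are given as log2 normalized signal (background corrected and quantile normalized), and a probe was called detected where its detection p-value, as given by the scanner software, was under 0.05. Between 19331 and 20904 probes were detected per array, or 40.8% to 44.2%, and between 24 and 35 of the KCN genes. The TRPM7 probe itself was undetected throughout, with detection p-values between 0.0753 and 0.201, so the arrays do not check the knockdown. Of 12 noradrenergic marker genes, 11 were detected on both SH-SY5Y control arrays and 5 on both SH-EP2 control arrays, while all 12 mesenchymal markers were detected in SH-EP2 controls and 8 in SH-SY5Y controls. Between the controls, 11 noradrenergic genes were lower in SH-EP2, and 10 mesenchymal genes were higher and 2 lower, so the markers separated the lines as they are labelled.

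Most KCN genes were not detected in either line. The brightest probe was detected on both control arrays for 20 of 97 genes in SH-EP2 (20.6%) and 22 in SH-SY5Y (22.7%), whereas of all genes 41.9% and 42.6% were. With TRPM7 shRNA, 21 KCN genes were detected in SH-EP2 and 28 in SH-SY5Y (28.9%, beside 44.3% of all genes). Over the 4 groups, 34 KCN genes were detected in at least 1 group and 12 in all of them. On no array were 40 genes detected, and a further 23 were detected on some array but never on both arrays of a group. Detection rests on a threshold, and in bulk RNA fewer cells that express a gene and less RNA per cell cannot be told apart.

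By family, the detected genes were spread over all kinds of pore. Of 40 voltage-gated alpha subunits, 4 were detected in SH-EP2 controls and 7 in SH-SY5Y controls, and 22 were detected on no array. Of 8 calcium- or sodium-activated pores, 3 and 4 were detected. Of 15 inward rectifiers, 3 and 4 were detected, of 15 K2P channels 4 and 3, and of 16 auxiliary subunits 5 and 4. KCNQ3 and KCNQ5, voltage-gated channels of neurons, and KCNN2 and KCNN3, small-conductance calcium-activated channels, were not detected on any array.

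**Figure D1:**
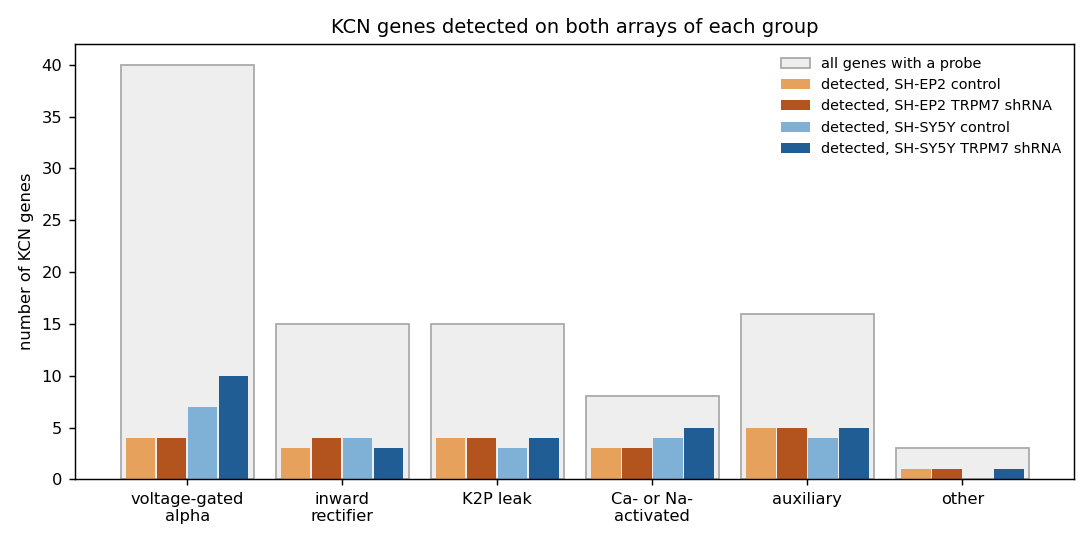
Number of KCN genes detected on both arrays of each group, by channel family (bars in colour), against the number of genes of that family with a probe (grey bars). In voltage-gated alpha subunits 4 genes were detected in each SH-EP2 group, 7 in SH-SY5Y controls and 10 in SH-SY5Y cells with TRPM7 shRNA, of 40.

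The set of channels differed between the control lines. On both controls of both lines, 13 KCN genes were detected. KCNH3, KCNIP3, KCNJ16, KCNK2 and KCNMB1 were detected on both SH-EP2 control arrays and on neither SH-SY5Y control array, and the reverse was found for 7 genes, among them KCNH4, KCNH8, KCNJ2, KCNJ8, KCNN1 and KCNT1. In limma, 10 KCN genes were higher in SH-EP2 controls and 13 were lower at a Benjamini-Hochberg adjusted p under 0.05, which is 10.3% and 13.4% of the 97 genes. Of all 31426 genes, 14.2% were higher and 15.9% lower, so the share of KCN genes was not above that background. KCNJ2 (log2 difference -0.78, adjusted p = 0.0821) and KCNN1 (-0.80, adjusted p = 0.278), detected only in SH-SY5Y controls, were not called in limma. The median log2 difference was 0.04 over KCN genes and -0.02 over all genes.

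Several well-known pores were far higher in SH-SY5Y. KCNJ8, an ATP-sensitive inward rectifier, had signals of 9.21 and 9.44 in SH-SY5Y controls and was not detected in SH-EP2 controls, at 1.99 and 1.76. It was at least 68.7-fold higher in SH-SY5Y (adjusted p = 9.93e-16 in limma). Such bounds compare group means of log2 signals, in which each array of the dimmer group counts at no less than the dimmest probe that was detected there. They hold only for the background correction and normalization used here. Over the alternatives that left out no array, the fitted KCNJ8 log2 difference lay between -7.46 and -2.85. KCNH2, the hERG channel, had 7.87 and 8.08 in SH-SY5Y controls against 2.32 and 3.30 in SH-EP2 controls, where 1 of 2 arrays detected it. Its log2 difference was -5.17 with a standard error (SE) of 0.30 (adjusted p = 2.29e-11), and a second KCNH2 probe was lower in SH-EP2 as well, by a log2 difference of -2.18 (adjusted p = 0.000856). The KCNH family was split between the lines. KCNH8 was at least 6.64-fold and KCNH4 at least 1.31-fold higher in SH-SY5Y, and KCNH6 differed by -0.86 on the log2 scale, while KCNH3 was higher in SH-EP2, and KCNH1, KCNH5 and KCNH7 were not detected on any array. The KCNH6 value rests on 1 bright probe, with a mean log2 signal of 11.97. Its further probes, with means of 2.25 and 1.96, were not detected on any array. KCNT1, a sodium-activated channel, had 5.87 and 6.03 in SH-SY5Y controls and was not detected in SH-EP2, so that it was at least 6.62-fold higher (adjusted p = 5.00e-09).

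Among genes detected on all control arrays, the leak channels KCNK1 and KCNK3 were higher in SH-SY5Y controls, with log2 differences of -2.34 (SE 0.20) and -1.72 (SE 0.28). KCNT2, the paralogue of KCNT1, differed by -1.61 (SE 0.31), and KCNMB4, the neuronal beta subunit of the BK channel, by -1.49 (SE 0.18). KCNAB1, a cytoplasmic beta subunit of voltage-gated channels, was detected on 1 of 2 SH-EP2 control arrays and differed by a fitted -2.18 (SE 0.34). The groups did not overlap for any of these genes. KCNAB3 also passed the test, but it was detected on only 1 of 2 arrays of the brighter group. KCNH6 and KCNAB3 were named after their values had been seen.

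In SH-EP2 the leading gene was KCNIP3, which encodes a calcium-binding partner of A-type channels that also acts as a transcriptional repressor. Its signals were 6.82 and 6.66 in SH-EP2 controls and 1.39 and 1.34, not detected, in SH-SY5Y controls, or at least 11.99-fold higher (adjusted p = 2.23e-10). KCNMB1, the beta subunit of the BK channel known from smooth muscle, had 6.11 on each SH-EP2 control array and was not detected in SH-SY5Y, at 1.95 and 1.77. It was at least 7.77-fold higher in SH-EP2 (adjusted p = 2.30e-07). KCNK2, a mechanosensitive leak channel, had 5.61 and 5.20 against 1.99 and 1.43, at least 4.76-fold higher, and a second probe for it was higher too, by a log2 difference of 1.61 (adjusted p = 0.0152). KCNH3, the KCNH family member with the opposite direction, was at least 3.17-fold higher and KCNJ16, an inward rectifier, at least 1.87-fold. A second KCNJ16 probe went the other way, at -0.94, and was not called (adjusted p = 0.159 in limma). It was detected on 1 SH-SY5Y control array and on no SH-EP2 control array.

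KCNN4, the intermediate-conductance calcium-activated channel, had 5.81 and 5.76 in SH-EP2 controls against 2.996 and 4.04 in SH-SY5Y controls, where 1 of 2 arrays detected it, a log2 difference of 2.27 (SE 0.35). Smaller differences in the same direction were found for KCNG1, a modifying alpha subunit that forms no channel alone, at 1.42 (SE 0.16), for the BK beta subunit KCNMB2 at 1.20 (SE 0.32) and for the A-type channel KCND1 at 1.16 (SE 0.29). The BK pore KCNMA1 differed by 0.63 (SE 0.19, adjusted p = 0.0148). KCNJ16 lost its call in 14 of 18 alternative analyses, without any 1 of the SH-EP2 arrays or SH-SY5Y control arrays among them (adjusted p between 0.0542 and 0.207). The call was lost in 7 of 18 alternative analyses for KCNMA1, 5 for KCNMB2, 3 for KCNH4 and 2 for KCND1. Without SH-EP2 control replicate 2, none of KCND1, KCNH4, KCNMA1 and KCNMB2 was called. KCNH4 and KCNMA1 were not called without SH-SY5Y control replicate 2, nor KCNMB2 without SH-SY5Y control replicate 1.

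**Figure D2:**
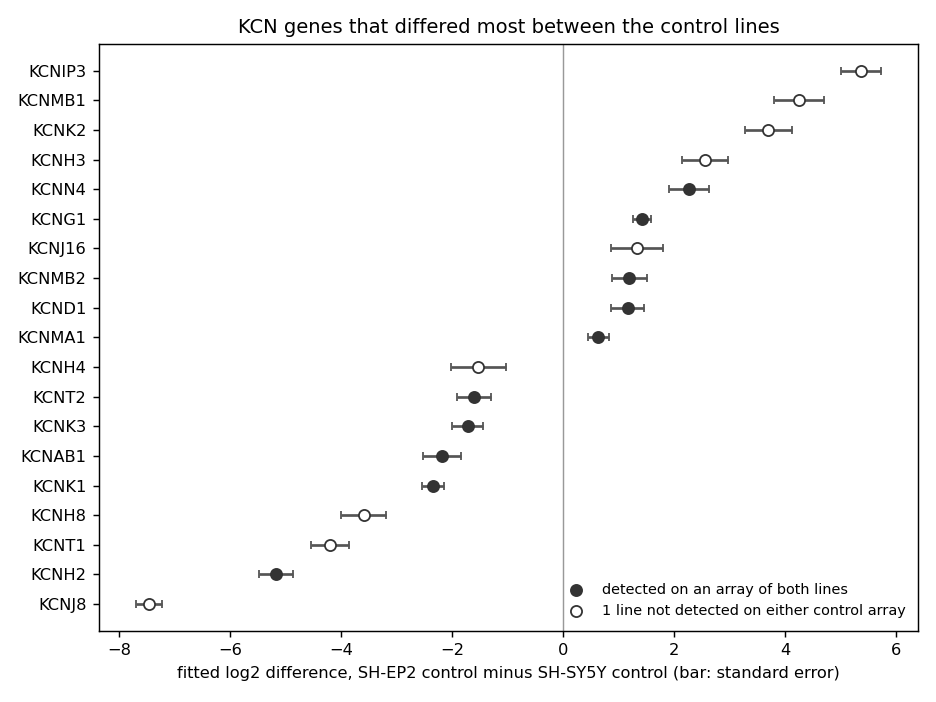
Log2 difference between SH-EP2 and SH-SY5Y control arrays, with its standard error, for 19 of the called KCN genes with the largest fitted differences. Open points mark genes not detected on either control array of 1 line, where the fitted value depends on the background, and KCNJ8 (-7.46) and KCNIP3 (5.37) lie at the ends.

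TRPM7 shRNA moved few KCN genes, and KCNMA1, the pore gene of the BK channel, was called in both lines. In SH-SY5Y cells 4 KCN genes rose and 1 fell, and in SH-EP2 cells 3 rose and 2 fell, at an adjusted p under 0.05 in limma. That is 4.12% higher and 1.03% lower in SH-SY5Y, beside 1.01% and 1.57% of all genes, and 3.09% and 2.06% in SH-EP2, beside 1.83% and 1.86% of all genes. The SH-SY5Y count became 0 without SH-SY5Y TRPM7 shRNA replicate 1 (13 genes at an unadjusted p under 0.05), 1 without TRPM7 shRNA replicate 2 and 2 without SH-SY5Y control replicate 2, and a fit without an intensity trend gave 0 in SH-SY5Y (16 unadjusted) and 3 in SH-EP2. The shares rest on 5 genes in each line, and with median scaling 3 KCN genes rose and 1 fell in SH-EP2, and 6 rose and 0 fell in SH-SY5Y (18 in either direction at an unadjusted p under 0.05). The median log2 change over KCN genes was 0.07 in SH-SY5Y and 0.12 in SH-EP2, with 0.00 and 0.01 over all genes. By family, the genes that rose were calcium- or sodium-activated pores (2 of 8 in SH-SY5Y, 1 of 8 in SH-EP2), auxiliary subunits (2 of 16 and 1 of 16) and 1 of 15 inward rectifiers in SH-EP2. The genes that fell in SH-EP2 were 1 of 40 voltage-gated alpha subunits and 1 of 16 auxiliary subunits. None of the 15 K2P channels passed the test by its brightest probe in either line in limma, with 3 and 2 at an unadjusted p under 0.05.

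The BK channel is a large-conductance potassium channel that opens on calcium and depolarization. Its pore is encoded by KCNMA1, and its calcium and voltage sensitivity is tuned by beta subunits (KCNMB1 to KCNMB4) and by gamma subunits such as LRRC26. The 250 bases upstream of the annotated start of KCNMA1 and of KCNMB1 are shown because the pore gene rose in both lines while the beta subunit gene fell in SH-EP2 cells. They are RefSeq sequences of GRCh38.p14, on the minus strand for both genes, at chr10:77637809-77638058 for KCNMA1 (the first of 2 listed starts) and at chr5:170389368-170389617 for KCNMB1. Capitals mark CpG dinucleotides.
KCNMA1: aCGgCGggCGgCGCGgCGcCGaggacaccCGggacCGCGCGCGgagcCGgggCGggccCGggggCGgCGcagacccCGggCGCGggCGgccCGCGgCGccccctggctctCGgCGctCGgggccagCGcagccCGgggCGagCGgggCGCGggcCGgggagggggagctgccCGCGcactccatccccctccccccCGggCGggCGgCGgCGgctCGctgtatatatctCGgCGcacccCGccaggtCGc
KCNMB1: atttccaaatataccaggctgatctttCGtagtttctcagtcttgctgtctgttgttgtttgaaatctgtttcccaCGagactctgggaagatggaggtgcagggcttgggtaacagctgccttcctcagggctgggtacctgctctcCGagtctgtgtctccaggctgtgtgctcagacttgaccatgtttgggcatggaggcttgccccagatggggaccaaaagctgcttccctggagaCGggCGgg
The KCNMA1 window is 85.6% G or C and holds 46 CpG dinucleotides, more than 99.6% of the 35116 promoters listed. The KCNMB1 window is 54.0% G or C and holds 5, below the median of 11.

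Upstream windows were listed for 6 of the 9 KCN genes that TRPM7 shRNA changed in either line. Each window is that of the first listed start, of 5 for KCNAB1 and of 3 for KCNIP4. The other CpG counts were 4 for KCNAB1, 38 for KCNIP4, 32 for KCNJ2 and 29 for KCNT1, so CpG-rich and CpG-poor windows were both found among genes that rose. Both strands were searched for the E-box CAGGTG, for the AP-1 site with the letters TGANTCA, for the TATA box with the letters TATAAA, and for the CArG box. The E-box letters were in 1 of the 6 windows, that of KCNIP4, which holds 2 copies that overlap no other match, and in 17.5% of all promoters. The other motifs were in none of the 6 windows and in 6.57%, 10.7% and 1.16% of all promoters, respectively. A match describes letters and not binding.

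KCNMA1 signals in SH-EP2 cells were 6.004 and 6.37 in controls and 7.54 and 7.70 with TRPM7 shRNA. In SH-SY5Y cells they were 5.65 and 5.46 in controls and 6.41 and 6.43 with TRPM7 shRNA. In each line both TRPM7 shRNA arrays lay above both control arrays. KCNMA1 rose 2.70-fold in SH-EP2 (log2 change 1.43, SE 0.19, adjusted p = 9.32e-05) and 1.82-fold in SH-SY5Y (log2 change 0.86, SE 0.19, adjusted p = 0.0156). The change differed between the lines by 0.57 (SE 0.27, adjusted p = 0.466), so a difference in size was not shown. It was the only KCN gene called in both lines, and 2 further KCNMA1 probes were not detected on any array. The SH-EP2 call was lost in 3 of 18 alternative analyses (adjusted p up to 0.477). In SH-SY5Y the call was lost in 6 of 19 alternative analyses (adjusted p up to 0.909). Among these were the fits without control replicate 2, TRPM7 shRNA replicate 1 or TRPM7 shRNA replicate 2.

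KCNMB1 fell below detection in SH-EP2 cells. Its signal was 6.11 on each control array and 2.92 and 2.73, not detected, with TRPM7 shRNA. This was at least 7.69-fold lower (adjusted p = 0.000164), and the call was kept in 18 of 18 alternative analyses. The size depended on the processing: over the alternatives that left out no array, the log2 change lay between -3.29 and -0.65. In SH-SY5Y cells KCNMB1 was not detected on any array. The change of KCNMB1 differed between the lines by -3.55 on the fitted log2 scale (adjusted p = 0.00413), a comparison in which SH-SY5Y contributed signals at background.

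KCNMB4 rose in SH-SY5Y cells. Its signals were 6.99 and 6.93 in controls and 7.93 and 7.79 with TRPM7 shRNA, a 1.87-fold rise (log2 change 0.90, SE 0.18, adjusted p = 0.00651). In SH-EP2 cells they were 5.54 and 5.39 in controls and 5.61 and 5.75 with TRPM7 shRNA (log2 change 0.21, adjusted p = 0.719). The difference between the lines was not called (-0.69, adjusted p = 0.274). The SH-SY5Y call was lost in 4 of 19 alternative analyses (adjusted p up to 0.164), among them those without control replicate 2 or TRPM7 shRNA replicate 1.

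The remaining beta subunits did not pass the test. KCNMB2 differed by -0.24 in SH-SY5Y and -0.20 in SH-EP2, with overlapping groups in both lines. KCNMB3 had 3.97 and 4.46 in SH-SY5Y controls and 5.19 and 5.11 with TRPM7 shRNA, a log2 difference of 0.93 (SE 0.34) with an adjusted p of 0.237. In SH-EP2 the difference was 0.43 (adjusted p = 0.696).

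LRRC26, the BK gamma subunit, belongs to a list of 36 further potassium transport and channel-partner genes outside the KCN names. It was not detected in SH-SY5Y controls (2.42 and 3.17) and was detected on both TRPM7 shRNA arrays (5.04 and 4.72), at least 3.30-fold higher (adjusted p = 0.0315). It was not detected on any SH-EP2 array. Of the 36 genes, 2 rose and none fell in SH-SY5Y cells in limma, with 4 higher and 3 lower at an unadjusted p under 0.05, beside 1.01% higher and 1.57% lower of all genes. The second was ABCC8, a sulfonylurea receptor that regulates ATP-sensitive channels. Its signals were 2.15 and 2.24, not detected, in SH-SY5Y controls and 4.65 and 4.16 with TRPM7 shRNA, at least 2.38-fold higher (adjusted p = 0.00693). In SH-EP2 cells none of the 36 genes passed the test in limma, with 2 higher and 2 lower at an unadjusted p under 0.05.

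**Figure D3:**
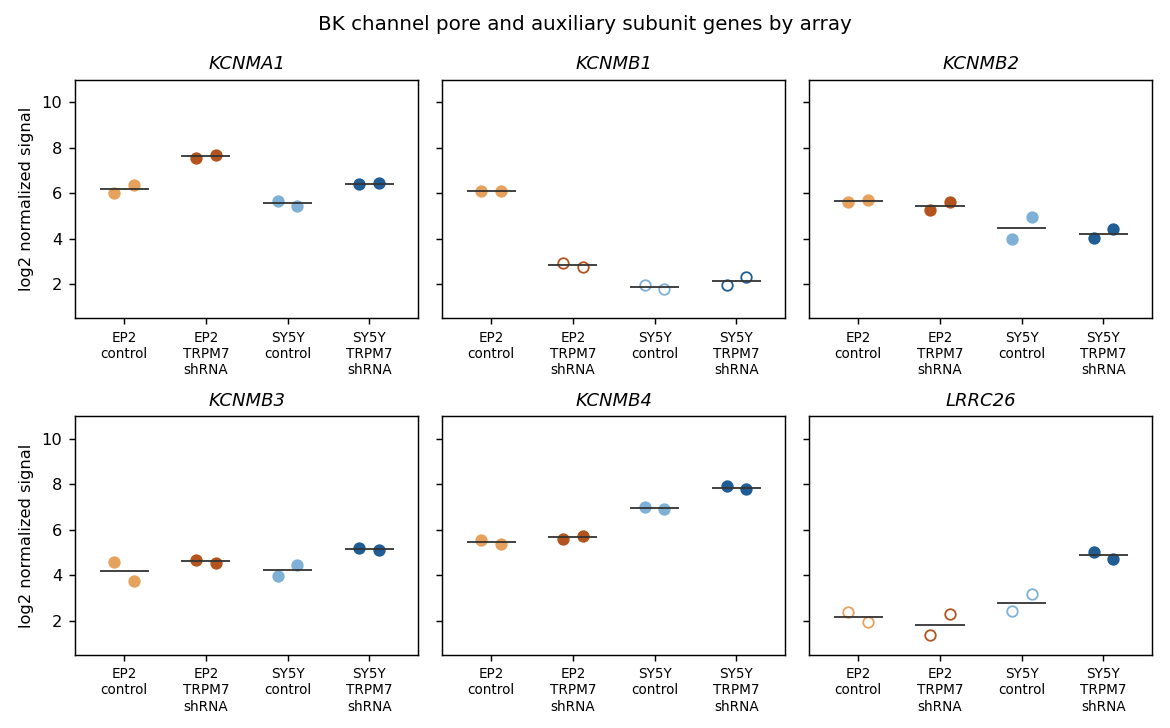
Log2 normalized signal on each array for the BK pore gene KCNMA1, its beta subunit genes and the gamma subunit gene LRRC26, with horizontal lines at group means and open circles where the probe was not detected. KCNMA1 was higher with TRPM7 shRNA in both lines, KCNMB1 fell from 6.11 to undetected in SH-EP2, and KCNMB4 and LRRC26 rose in SH-SY5Y; levels are not comparable between genes.

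In SH-EP2 cells the increases with the largest fitted size among KCN genes were in KCNAB1 and KCNJ2. KCNJ2, the strong inward rectifier that stabilizes the resting potential, was not detected in SH-EP2 controls (3.04 and 2.99) and reached 6.17 and 5.92 with TRPM7 shRNA, at least 7.06-fold higher (adjusted p = 5.90e-06). The call was kept in 18 of 18 alternative analyses, but over those that left out no array the log2 change lay between 0.60 and 3.03. In SH-SY5Y cells KCNJ2 was detected in every array, at 3.81 and 3.77 in controls and 5.02 and 4.92 with TRPM7 shRNA. The groups did not overlap there, but the log2 difference of 1.18 (SE 0.31) missed the threshold (adjusted p = 0.0600). The fitted difference between the lines was 1.85 (SE 0.45, adjusted p = 0.0420), with the SH-EP2 controls at background, and it lost its call in 13 of 17 alternative analyses.

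KCNAB1 was at 3.25 and 2.65 in SH-EP2 controls, detected on 1 of 2 arrays, and at 6.24 and 5.98 with TRPM7 shRNA. Its fitted log2 change was 3.16 (SE 0.34, adjusted p = 7.90e-06), and the call was lost in 2 of 18 alternative analyses (adjusted p up to 0.260). With TRPM7 shRNA its signal in SH-EP2 cells was above the 5.25 and 5.01 of SH-SY5Y controls. In SH-SY5Y cells with TRPM7 shRNA it was 4.74 and 5.73, which overlapped with controls (log2 difference 0.10, adjusted p = 0.957). The effects differed by 3.06 between the lines (SE 0.48, adjusted p = 0.000993), a call lost in 3 of 17 alternative analyses. Of 3 further KCNAB1 probes none was detected on more than 2 arrays, and none was called.

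KCNG1 fell in SH-EP2 cells, from 8.41 and 8.47 in controls to 7.71 and 7.84 with TRPM7 shRNA. The log2 change was -0.66 (SE 0.16, adjusted p = 0.0219), so the KCNG1 signal, which was higher in SH-EP2 than in SH-SY5Y controls, moved toward that of SH-SY5Y. In SH-SY5Y cells the signals were 7.26 and 6.78 in controls and 7.37 and 7.58 with TRPM7 shRNA, a difference of 0.45 that was not called (adjusted p = 0.204). The effects differed between the lines by -1.12 (SE 0.22, adjusted p = 0.0101). The SH-EP2 call was lost in 8 of 18 alternative analyses (adjusted p up to 0.887). Among these were median scaling (0.0778) and the fits without any 1 of the 4 SH-EP2 arrays. The further KCNG1 probes were not detected on any array.

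In SH-SY5Y cells the clearest increase was in KCNT1, whose product carries a sodium-activated potassium current in neurons. Its signals were 5.87 and 6.03 in controls and 7.92 and 7.91 with TRPM7 shRNA, a 3.89-fold rise (log2 change 1.96, SE 0.35, adjusted p = 0.00240). The call was lost in 4 of 19 alternative analyses (adjusted p up to 0.122), among them those without TRPM7 shRNA replicate 1 or 2. KCNT1 was not detected on any SH-EP2 array. The fitted difference between the lines, -2.15 (SE 0.49, adjusted p = 0.0284), sets the SH-SY5Y rise against signals at background.

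KCNIP4, a calcium-binding partner of A-type channels like KCNIP3, was not detected in SH-SY5Y controls (2.91 and 2.93) and was detected at 5.13 and 4.43 with TRPM7 shRNA. It was at least 3.09-fold higher (adjusted p = 0.0351). Its 5 further probes were not detected on any array. The call was lost in 8 of 19 alternative analyses (adjusted p up to 0.708), among them those without any 1 of the 4 SH-SY5Y arrays. In SH-EP2 the log2 difference was 0.62 (adjusted p = 0.668), and the difference between the lines was not called (-1.24, adjusted p = 0.534).

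**Figure D4:**
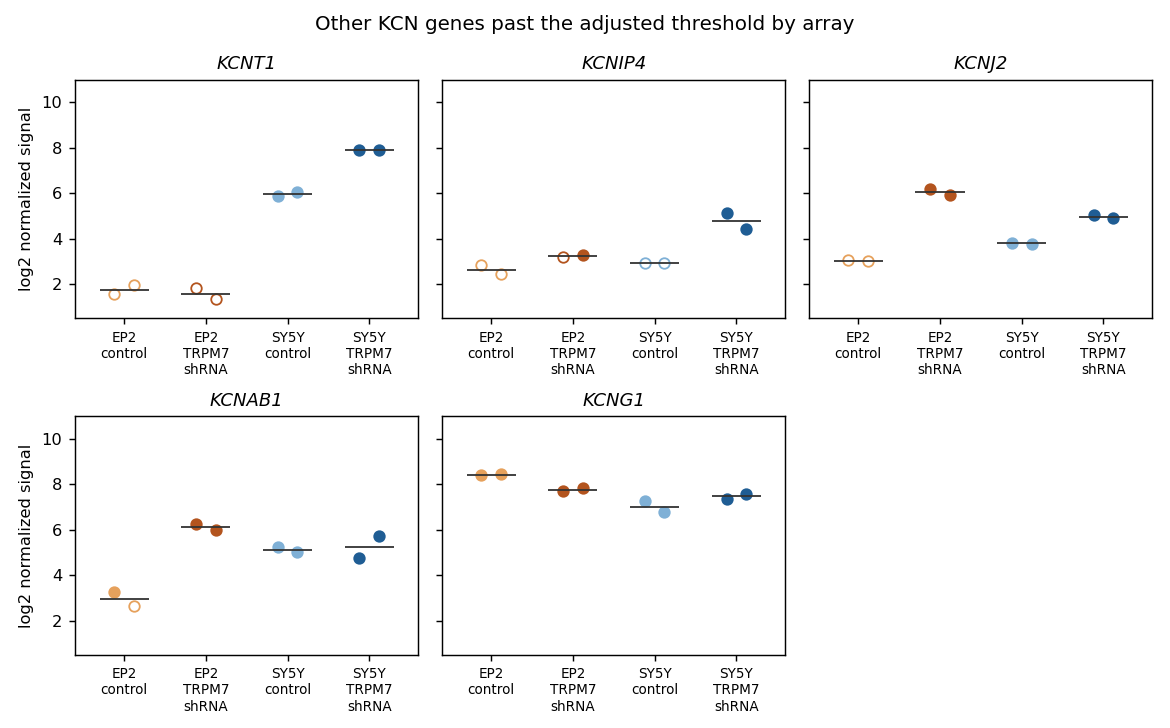
Log2 normalized signal on each array for 5 further KCN genes that passed the adjusted threshold for TRPM7 shRNA in either line, with horizontal lines at group means and open circles where the probe was not detected. KCNT1 and KCNIP4 rose in SH-SY5Y; KCNJ2 and KCNAB1 rose and KCNG1 fell in SH-EP2.

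The other channels that mark the lines were not called for TRPM7 shRNA. KCNH2 in SH-SY5Y was at 7.87 and 8.08 in controls and 8.001 and 7.85 with TRPM7 shRNA, with overlapping groups (log2 difference -0.05, SE 0.30). KCNJ8 was at 9.21 and 9.44 in controls and 8.70 and 8.96 with TRPM7 shRNA, a difference of -0.50 (SE 0.23, adjusted p = 0.421). KCNIP3 in SH-EP2 was at 6.82 and 6.66 in controls and 6.67 and 6.63 with TRPM7 shRNA, a difference of -0.09 (SE 0.36). For KCNK2 in SH-EP2 the difference was 0.62 (SE 0.42, adjusted p = 0.619) and for KCNN4 0.34 (SE 0.35, adjusted p = 0.795). With standard errors of this size, changes of moderate size could have been missed. The 2 probes of KCNK1 gave different calls in SH-SY5Y: the brighter one differed by 0.53 (adjusted p = 0.263) and the other by 0.85 (adjusted p = 0.0389). In SH-EP2 they had opposite signs, 0.37 and -0.40, and neither was called. For the difference between the lines, the brighter probe was not called (-0.16, adjusted p = 0.908 in limma) and the other was (-1.25, adjusted p = 0.0403).

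The effect of TRPM7 shRNA differed between the lines for 5 KCN genes (5.15%) in limma, beside 1.8% of all genes. The fitted differences were positive for KCNAB1 and KCNJ2, whose SH-EP2 effect was the higher, and negative for KCNG1, KCNMB1 and KCNT1; with median scaling 1 was positive and 3 were negative. For KCNMB1 and KCNT1 the other line had no detected signal. Only for KCNAB1, KCNG1 and KCNJ2 was the gene detected in both lines. The KCNJ2 difference lost its call without any 1 of the 8 arrays (adjusted p between 0.0715 and 0.252). The KCNT1 difference lost its call in 9 of 17 alternative analyses (adjusted p up to 0.211). Among these were the fits without any 1 of the SH-SY5Y arrays, SH-EP2 control replicate 2 or SH-EP2 TRPM7 shRNA replicate 2. The KCNG1 difference lost its call in 6 of 17 (adjusted p up to 0.908). These included the fits without SH-EP2 control replicate 2, SH-EP2 TRPM7 shRNA replicate 1 or SH-SY5Y TRPM7 shRNA replicate 2. For KCNMB4 and KCNIP4, each called in 1 line, the difference between the lines did not pass the test.

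**Figure D5:**
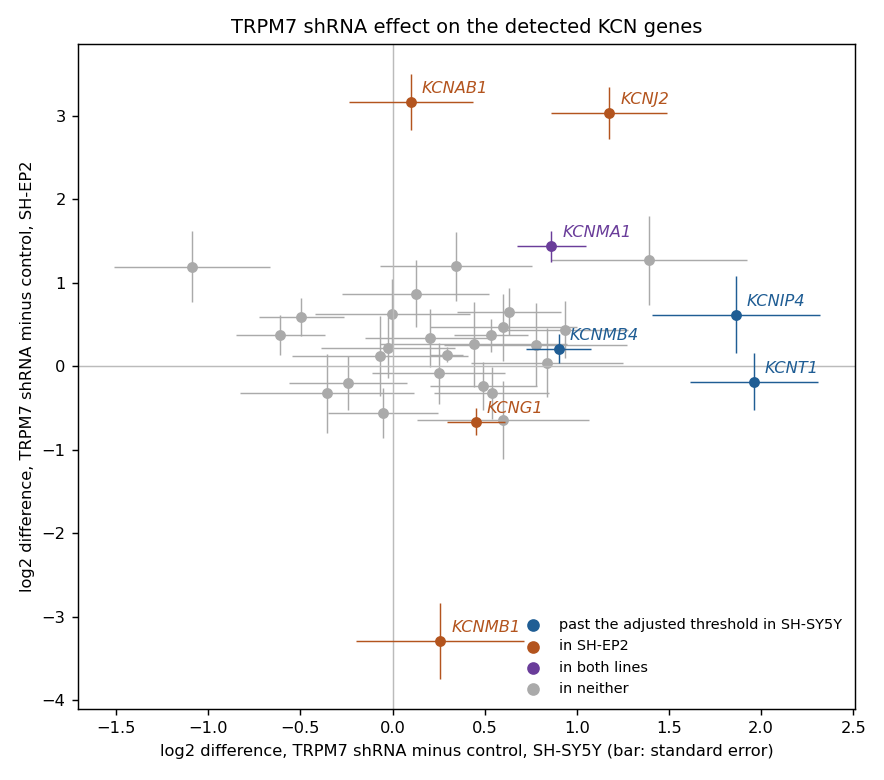
Log2 difference between TRPM7 shRNA and control arrays in SH-SY5Y (horizontal) and SH-EP2 (vertical), with standard errors, for 33 of the 34 KCN genes detected on both arrays of at least 1 group, coloured by the line in which the gene passed the adjusted threshold. KCNMA1 alone passed in both lines (0.86 and 1.43), KCNAB1 and KCNJ2 lie at the top, and KCNMB1 lies at the bottom.

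Some marker genes of the cell states moved as well. With TRPM7 shRNA in SH-SY5Y cells, 3 of 12 noradrenergic genes fell and none rose in limma (5 lower and 0 higher at an unadjusted p under 0.05), and their summed normalized signal went from between 37358 and 38100 in controls to between 26557 and 28553. Of 12 mesenchymal genes, 1 rose and 3 fell, and the sum went from between 25580 and 25715 to between 20772 and 22117. Such a sum follows the brightest genes, here VIM and LGALS1, whose log2 changes were -0.30 and -0.36. The dimmer SNAI2, which also fell, changed by -2.77, and NT5E, which rose, by 1.16. In SH-EP2 cells 1 mesenchymal gene rose and 4 fell (45165 to 46620 in controls, 42707 to 43274 with TRPM7 shRNA). There, 1 noradrenergic gene rose and 1 fell, GATA2, while a second with lower values, CHGA, was not detected in either group; 7 of the 12 were detected on neither SH-EP2 control array, and the sum was between 361 and 372 in controls and between 353 and 416 with TRPM7 shRNA. The median log2 change was -0.18 over noradrenergic and 0.03 over mesenchymal genes in SH-SY5Y, and 0.03 and -0.02 in SH-EP2. Of all genes, 1.01% rose and 1.57% fell in SH-SY5Y, and 1.83% rose and 1.86% fell in SH-EP2. The part of the marker shifts in the KCN results was not tested.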

How the data were processed

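Total RNA of 8 samples, grouped by the labelled cell line and shRNA with 2 arrays per group, was hybridised to Illumina bead arrays. The authors extracted intensity values and detection p-values with GenomeStudio 2011.1 and deposited the intensities without normalization, on a linear scale. The study normalized by Robust-Multi-Array. Here the RMA background model, quantile normalization over all 8 arrays and log2 were applied, with no filter. RMA background estimates were 98.3 to 111 and median signals 104.7 to 119.9. Dim probes therefore carry little information, and 2 arrays per group limit the precision.

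Groups were compared in R 4.3.3 with limma 3.58.1 and statmod 1.5.0 (1 model of 4 groups, eBayes with an intensity trend, two-sided tests, Benjamini-Hochberg adjustment over all 47322 probes). Counts by gene used the brightest probe. On simulated arrays with 200 probes changed by a log2 of 2, 113 were recovered in SH-SY5Y and 91 in SH-EP2, with 6 and 2 false calls. Those probes were drawn from all 47322, undetected ones included, and the noise was independent between arrays. The recovery therefore does not describe detected KCN genes, and the false calls leave out any batch or culture effect.

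The genes named were KCN genes changed by TRPM7 shRNA in either line and detected in the brighter group, the 10 largest called differences in each direction between the control lines, the 5 smallest p-values in each line, 10 channel genes fixed in a list, and TRPM7. The members, the naming rule, the list of 36 further potassium genes and the noradrenergic and mesenchymal lists were chosen with earlier results of these data known. Of the KCN genes, 1 enters the counts and is not reported singly here. Promoters came from RefSeq. Alternatives were other background corrections, median scaling, a detection filter, other spread estimates, each line fitted alone, a block for replicate number, the mean over probes, and each array left out in turn.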

Additional observations from a re-analysis of the deposited data

Results flagged for a closer look

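For 5 KCN genes the effect of TRPM7 shRNA differed between the cell lines by a test of the difference itself (limma interaction, SH-EP2 effect minus SH-SY5Y effect, 2 arrays per group). The log2 difference was 3.06 for KCNAB1 (adjusted p = 0.000993), which rose in SH-EP2 only. Only 1 of 2 SH-EP2 control arrays detected KCNAB1, so the size is near background there. Over the alternatives that left out no array, the KCNAB1 difference lay between 0.60 and 3.06. The log2 difference was 1.85 for KCNJ2 (adjusted p = 0.0420), where both SH-SY5Y TRPM7 shRNA arrays also lay above their controls. KCNJ2 was undetected in SH-EP2 controls, so the value depends on the background, and the call was lost in 13 of 17 alternative analyses. For KCNG1 it was -1.12 (adjusted p = 0.0101), with a fall in SH-EP2 and higher values in SH-SY5Y that were not called. For KCNMB1 it was -3.55 (adjusted p = 0.00413), and for KCNT1 -2.15 (adjusted p = 0.0284). No SH-SY5Y array detected KCNMB1 and no SH-EP2 array detected KCNT1, so these differences set a change in 1 line against background signal in the other.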

How the results depend on the processing

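Of 35 gene results and their alternatives, 521 of 630 values kept direction and call, 109 kept the direction and missed the threshold, and 0 changed direction. These gene results were chosen by their call in the main fit, and the alternatives reuse the same arrays. A change of direction was therefore unlikely in advance. KCN genes called numbered 5 in SH-SY5Y, 5 in SH-EP2, 23 between the control lines and 5 for the difference between lines. Without an intensity trend these became 0 (16 at an unadjusted p under 0.05), 3 and, for the difference, 1. With a per-probe test of equal variances without eBayes they were 0 (11 unadjusted), 2 and 0 (15 unadjusted). Averaging all probes of each gene gave 3, 2 and 3; undetected probes then enter the average. For the difference between lines, normexp with an offset of 50 gave 10 and no background correction 11. Leaving out each array in turn gave 0 to 5 in SH-SY5Y, 4 to 5 in SH-EP2, 17 to 23 between the control lines and 2 to 4 for the difference. The 0 (13 unadjusted) came without SH-SY5Y TRPM7 shRNA replicate 1, while 1 was left without SH-SY5Y TRPM7 shRNA replicate 2, and 2 were left without SH-SY5Y control replicate 2. The difference fell to 2 without SH-EP2 control replicate 2 or SH-SY5Y TRPM7 shRNA replicate 2, and to 3 without SH-EP2 TRPM7 shRNA replicate 1 or 2 or SH-SY5Y TRPM7 shRNA replicate 1. The replicate block gave 4, 5 and 21, and 3 for the difference. Replicate numbers did not pair the arrays (r of the replicate differences -0.00 in SH-EP2 and -0.11 in SH-SY5Y over 14577 probes). A crossed pairing in SH-SY5Y, chosen after seeing the data, gave 6. Genes detected under the other detection rules stayed within 1.5 times the counts given. Signals near background limit the undetected genes to bounds.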
